A study of Mus musculus with 15 samples.

Results

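The macrophage and myeloid genes are 45 genes chosen by symbol, all of which were found among the 55471 genes of a mouse RNA-seq count table, on 16 chromosomes. They were followed in 15 libraries of cultured bone mesenchymal cells, labelled MSCLCs, as a measure of myeloid RNA carried in stromal cultures. In experiment 1, 4 libraries had the genotype label EFPrx1MSCLC (title numbers 219, 221, 225 and 229) and 3 had the label MSC (202, 234 and 237), which the design text calls WT. The titles of MSC 234 and 237 carry WT, and that of MSC 202 does not. In experiment 2, 2 libraries were labelled ha, 4 hr and 2 EF, which the design text names ha-EFPrx1, hr-EFPrx1 and EFPrx1. All 8 titles of experiment 2 carry the number 221, those of ha add Combi and T, and those of hr add Combi and uns with further numbers. No treatment or animal age is given in the labels, nor are the meanings of ha and hr. The genotype names contain Prx1, and the labels do not say whether it is the driver of the EF genotype. Whether a group's libraries are separate cultures or animals is unstated, so a p-value here reflects differences among libraries that may be no more than technical. The hr libraries 1-1 and 1-2, 2-1 and 2-2, and the EF pair share the leading part of their titles.

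Macrophages are phagocytes of the blood-forming lineage, and they adhere to plastic together with stromal cells when bone or marrow is put into culture. Their gene programme is set by the ETS-family factor PU.1, encoded by Spi1, and their survival depends on the receptor for the cytokine CSF1, which stromal cells secrete. Signals from their Fc and immunoglobulin-like receptors pass through the adaptors DAP12 (Tyrobp) and FcRγ (Fcer1g), whereas lysozyme, cathepsins and complement C1q are among their most abundant products.

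Levels are CPM, that is counts scaled to a library total of 1000000, and library depth was 14906180 to 26833876 counts in experiment 1 and 11195371 to 16378368 in experiment 2. One library of each group of experiment 1 stood apart in these genes, EFPrx1MSCLC 219 by its higher levels and MSC 202 by a shift with transcript length, and both are described below with the results they touch. The mesenchymal factor Prrx1 had 311.5 to 854 CPM in EFPrx1MSCLC, 123.5 to 243 CPM in MSC and 154 to 677 CPM in experiment 2, and was called higher in EFPrx1MSCLC than in MSC. Of the 10 genes of the stromal list, 1 was called higher there and 2 lower, Col1a1 (264 to 1478 CPM, against 4778 to 5122 CPM in MSC) and Pdgfrb. Over all 14596 genes tested in that comparison, 7.7% were called higher and 12.1% lower, so these small counts do not set the list apart. Col1a2 had 82.3, 2984, 611 and 2328 CPM in EFPrx1MSCLC 219, 221, 225 and 229, against 4847 to 9529 CPM in MSC, and was not called. Thy1 split the EFPrx1MSCLC libraries, with 14.2 and 25.1 CPM in 219 and 225 and 1574 and 1632 CPM in 221 and 229. It had 143.5 to 378.5 CPM in MSC and was not called. Mitochondrial genes took 4.06% to 8.43% of counts in EFPrx1MSCLC, against 1.63% to 3.52% in MSC, and their part in the results was not tested. The experiments ran on different flowcells, lane 3 and lane 1, and flowcell and experiment cannot be told apart, so values of the experiments are set side by side without a test.

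The 45 genes together made up a sizeable part of the RNA in MSC cultures and very little of it anywhere else. Their summed level was 758, 102.5, 82.7 and 126.2 CPM in EFPrx1MSCLC 219, 221, 225 and 229, against 15130, 37170 and 25080 CPM in MSC 202, 234 and 237. The MSC sums correspond to 1.51%, 3.72% and 2.51% of all counts. In experiment 2 the sum was 30.6 and 87.9 CPM in ha, 33.9, 32.3, 23.9 and 25.1 CPM in hr, and 22.8 and 21.1 CPM in EF. At least 1 CPM was reached by 34, 9, 6 and 11 of the 45 genes in the 4 EFPrx1MSCLC libraries, against 44, 45 and 45 in the 3 MSC libraries. In experiment 2 that number was 7 and 8 in ha, 4, 4, 4 and 5 in hr, and 5 in both EF libraries. In bulk RNA, fewer cells of a type and less RNA per cell cannot be told apart.

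**Figure D1:**
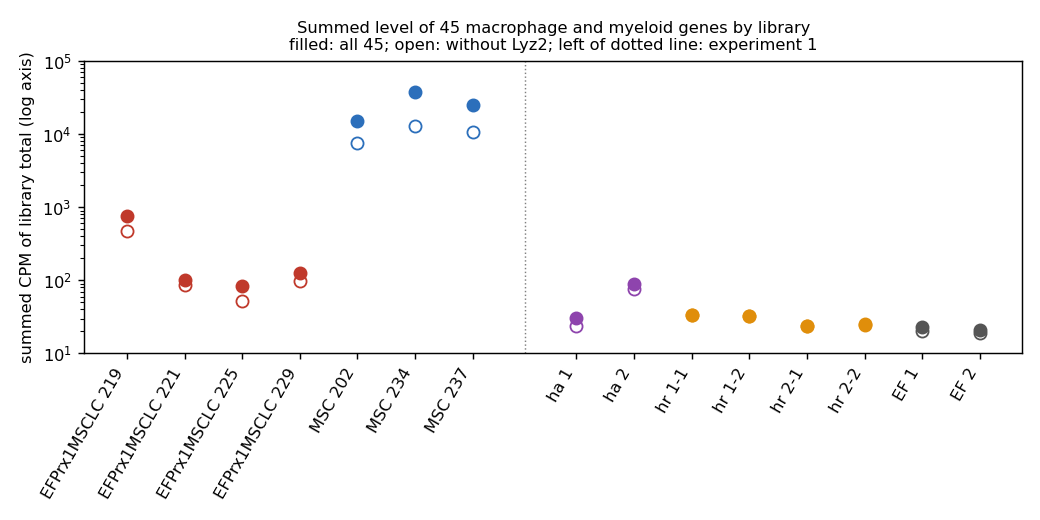
Summed CPM of the 45 genes in each library (log axis), for all genes (filled points) and without Lyz2 (open points). The 3 MSC libraries sit between 15130 and 37170 CPM, EFPrx1MSCLC 219 at 758 CPM and the other EFPrx1MSCLC libraries between 82.7 and 126.2 CPM. The libraries of experiment 2 sit between 21.1 and 87.9 CPM.

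One gene, Lyz2, held much of the sum in MSC. Lyz2 encodes lysozyme of macrophages and granulocytes (ENSMUSG00000069516, chr10:117277331-117282321, GRCm38). It made up 37.7%, 17.0%, 37.4% and 21.9% of the summed level in EFPrx1MSCLC 219, 221, 225 and 229, against 49.4%, 65.0% and 57.6% in MSC 202, 234 and 237. Per kilobase of transcript, Lyz2 was first of the 45 genes in MSC with a mean of 11670 CPM per kb, followed by Ctss with 1164 CPM per kb and Tyrobp with 760 CPM per kb. The lowest of the 45 on that scale was Cd74, with 3.35 CPM per kb. Without Lyz2 the sum was 472, 85.1, 51.8 and 98.6 CPM in EFPrx1MSCLC, against 7651, 13020 and 10630 CPM in MSC, so the separation of the groups did not rest on Lyz2.

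**Figure D2:**
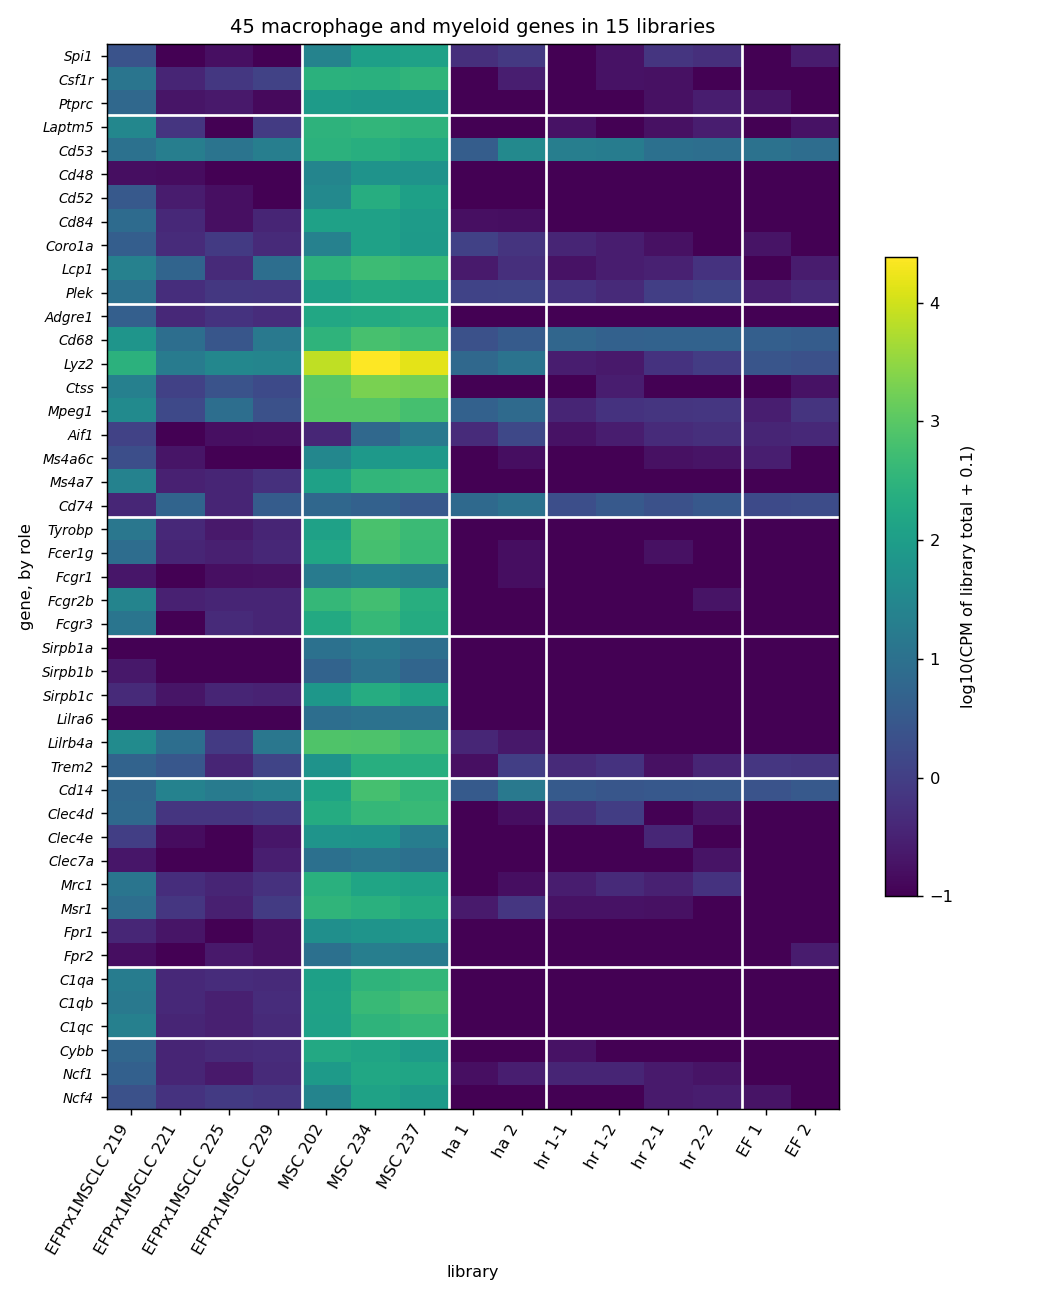
Level of each of the 45 genes (rows, ordered by role, roles divided by white lines) in each of the 15 libraries (columns), as log10(CPM + 0.1). Most rows are high in the 3 MSC libraries, lower in EFPrx1MSCLC 219 and near the floor elsewhere, while Cd53, Cd68, Cd74 and Cd14 keep a level of at least 1 CPM in all 8 libraries of experiment 2.

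The comparison of EFPrx1MSCLC with MSC asks how cultures labelled EFPrx1MSCLC differ from those labelled MSC. All 45 genes passed the filter on low counts, which most of them did through the MSC libraries. Of the 45, 39 were lower in EFPrx1MSCLC in edgeR's quasi-likelihood test at an adjusted p under 0.05, where 12.1% of the 14596 genes tested were called lower and 7.7% higher. The remaining 6, Laptm5, Aif1, Ms4a7, Cd74, Fcgr2b and C1qc, were not called. All 4 EFPrx1MSCLC libraries lay below all 3 MSC libraries for 43 genes, all but Aif1 and Cd74, against 13.9% of all genes tested. The median log2 fold change of the 45 was -6.66, or -6.62 with the genes that had no count in EFPrx1MSCLC set at their bound, against 0.04 over all genes tested. Every fitted change was negative, and the smallest was -1.26 for Cd74.

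The count of calls depended on which libraries were fitted. Without EFPrx1MSCLC 219 the test called 43 of 44 genes lower, with a median log2 fold change of -9.48, and the share of all genes called lower was 12.3%. Without 221, 225 or 229 it called 33, 36 and 32 of 45. Without MSC 202 it called 40 of 45, without 234 it called 29 and without 237 it called 31. Over all 7 omissions 29 genes were always called, and 10 of the 39 lost their call in at least 1. DESeq2 called 44 of the 45 lower and limma-voom 43.

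All 3 genes of lineage and survival were lower in EFPrx1MSCLC. Spi1 (ENSMUSG00000002111, chr2:91082390-91115756) had 2.25, 0, 0.0656 and 0 CPM in EFPrx1MSCLC 219, 221, 225 and 229, against 25.0, 110.2 and 118.1 CPM in MSC 202, 234 and 237. Its log2 fold change was -7.51 ± 1.57 (SE, n = 4 and 3; edgeR adjusted p = 0.0168), and the call was lost without MSC 234 or 237 (adjusted p up to 0.058). Csf1r, the CSF1 receptor, had 12.4, 0.261, 0.656 and 1.04 CPM in EFPrx1MSCLC, against 273, 256 and 327 CPM in MSC (log2 fold change -6.62 ± 1.31, edgeR adjusted p = 0.0141). Ptprc (ENSMUSG00000026395, chr1:138062861-138175708), the CD45 phosphatase that marks all leukocytes, had 6.51, 0.104, 0.131 and 0.0373 CPM in EFPrx1MSCLC, against 91.3, 73.7 and 73.7 CPM in MSC. Its log2 fold change was -5.87 ± 1.53 (edgeR adjusted p = 0.0356), and the call was lost in 5 of the 7 omissions (adjusted p up to 0.0922). It was -10.1 without EFPrx1MSCLC 219 (adjusted p = 0.000307). For all 3 genes the groups did not overlap and EFPrx1MSCLC 219 was the highest of its group.

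PU.1 binds a purine-rich element with the core GAGGAA, and the 250 bases before the transcription start were searched for those 6 bases on both strands. RefSeq promoters (build GRCm38.p6) were matched for 34 of the 45 genes, and 18 of them, 52.9%, held the motif in that window. Over all 27025 genes of the same promoter table the share was 25.9%. Shown are 170 bases that end just before the start, 5′ to 3′ on the gene's strand, for the second most abundant gene in MSC (Ctss), a complement gene without a count in experiment 2 (C1qb), an immunoglobulin-like receptor (Trem2), a gene that stayed detectable in every library (Cd53) and a gene without the motif that was higher in ha (Mpeg1). Capitals mark GAGGAA or, on the other strand, TTCCTC. The windows are chr3:95526616-95526785 on the plus strand for Ctss, chr4:136886201-136886370 on the minus strand for C1qb, chr17:48346231-48346400 on the plus strand for Trem2, chr3:106790150-106790319 on the minus strand for Cd53 and chr19:12460600-12460769 on the plus strand for Mpeg1.
Ctss: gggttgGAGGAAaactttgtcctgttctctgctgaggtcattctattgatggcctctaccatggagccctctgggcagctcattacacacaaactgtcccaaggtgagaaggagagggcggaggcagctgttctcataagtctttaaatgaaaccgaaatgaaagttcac
C1qb: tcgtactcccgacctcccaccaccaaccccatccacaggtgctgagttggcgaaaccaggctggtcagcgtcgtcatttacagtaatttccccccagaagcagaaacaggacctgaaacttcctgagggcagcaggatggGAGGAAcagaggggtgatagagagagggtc
Trem2: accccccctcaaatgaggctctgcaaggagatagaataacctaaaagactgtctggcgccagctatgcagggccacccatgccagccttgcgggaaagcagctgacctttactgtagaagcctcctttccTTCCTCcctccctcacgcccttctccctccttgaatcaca
Cd53: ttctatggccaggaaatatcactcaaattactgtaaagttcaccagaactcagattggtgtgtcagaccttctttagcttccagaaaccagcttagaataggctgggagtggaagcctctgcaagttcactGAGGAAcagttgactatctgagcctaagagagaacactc
Mpeg1: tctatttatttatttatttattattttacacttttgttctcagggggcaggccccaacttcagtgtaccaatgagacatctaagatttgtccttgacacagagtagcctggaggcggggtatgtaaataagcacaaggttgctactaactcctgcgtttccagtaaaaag
The motif began 164 bases before the start in Ctss, 30 in C1qb, 40 in Trem2 and 39 in Cd53, and the Mpeg1 window held none. A match describes letters and is no evidence that PU.1 binds there.

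Of the 8 genes of leukocyte membrane and cytoskeleton, 7 were lower in EFPrx1MSCLC and Laptm5, a lysosomal membrane protein of blood cells, was not called. Laptm5 had 30.5, 0.574, 0 and 0.745 CPM in EFPrx1MSCLC, against 303, 348.5 and 309 CPM in MSC (log2 fold change -5.64 ± 1.78, edgeR adjusted p = 0.0622). Without EFPrx1MSCLC 219 its adjusted p was 0.00185. Cd53, a tetraspanin of leukocytes, behaved differently: it had 10.1, 20.0, 11.6 and 19.7 CPM in EFPrx1MSCLC, against 291, 232 and 174 CPM in MSC. Its log2 fold change of -4.18 ± 0.37 (edgeR adjusted p = 0.00121) was the smallest of the 39 called, and EFPrx1MSCLC 219 was its lowest library, not its highest. Plek, the platelet and leukocyte protein pleckstrin, had 10.1, 0.418, 0.656 and 0.596 CPM in EFPrx1MSCLC, against 123.2, 185.5 and 166 CPM in MSC (log2 fold change -6.05 ± 1.21, edgeR adjusted p = 0.0144). Cd48, a ligand of lymphocyte and natural killer cell receptors, had 2 counts in the 4 EFPrx1MSCLC libraries together and 2392 in the 3 MSC libraries, which is 0.0582% of the MSC level with an exact 95% interval of 0.00704% to 0.21% for counting error only. Cd52, Cd84, Coro1a and Lcp1 were lower by log2 fold changes of -7.56, -6.11, -6.13 and -5.70, and the calls of Cd52 and Cd84 were lost without MSC 234 and that of Cd84 also without MSC 237 (adjusted p up to 0.0554 and 0.0638).

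Among the 9 genes of macrophage identity and lysosome, 6 were lower in EFPrx1MSCLC. Lyz2 had 286, 17.5, 30.9 and 27.7 CPM in EFPrx1MSCLC, against 7475, 24150 and 14450 CPM in MSC, with a log2 fold change of -7.71 ± 1.27 (SE; edgeR adjusted p = 0.0074). Adgre1, the F4/80 antigen of mature macrophages, had 4.26, 0.313, 0.525 and 0.373 CPM in EFPrx1MSCLC, against 165, 194 and 229.5 CPM in MSC (log2 fold change -7.46 ± 1.02, edgeR adjusted p = 0.00408). Ctss (chr3:95526786-95556403), the lysosomal protease cathepsin S, had 22.1, 0.992, 2.30 and 1.53 CPM in EFPrx1MSCLC, against 988, 2016 and 1728 CPM in MSC (log2 fold change -8.17 ± 1.31, edgeR adjusted p = 0.00679). These 3 genes showed one pattern, with EFPrx1MSCLC 219 highest in its group, the other 3 libraries close together, and all of them far below MSC. Mpeg1 (chr19:12460779-12465283), a pore-forming protein of phagocytes, had 38.5, 1.41, 8.79 and 2.05 CPM in EFPrx1MSCLC, against 917, 906 and 610 CPM in MSC (log2 fold change -6.29 ± 1.21, edgeR adjusted p = 0.0126). Cd68, a lysosomal glycoprotein that is not confined to macrophages, had 62.7, 8.72, 2.69 and 15.1 CPM in EFPrx1MSCLC, against 312, 661 and 525.5 CPM in MSC. Its log2 fold change was -4.78 ± 0.99 (edgeR adjusted p = 0.0162), and the call was lost without EFPrx1MSCLC 229 or MSC 234 (adjusted p up to 0.0519). Ms4a6c fell with a log2 fold change of -7.34.

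The other 3 genes of that role were not called. Aif1, the actin-binding protein IBA1 of macrophages and microglia, had 1.04, 0, 0.0656 and 0.0745 CPM in EFPrx1MSCLC, against 0.282, 6.50 and 14.6 CPM in MSC, and the groups overlapped through MSC 202 and EFPrx1MSCLC 219 (log2 fold change -4.86 ± 1.58, edgeR adjusted p = 0.0679). Cd74, the invariant chain that escorts MHC class II molecules, had 0.288, 5.32, 0.263 and 3.58 CPM in EFPrx1MSCLC, against 6.32, 4.69 and 3.15 CPM in MSC (log2 fold change -1.26 ± 1.02, edgeR adjusted p = 0.404). Cd74 was thus low throughout and overlapped between the groups, with EFPrx1MSCLC 221 and 229 at the MSC level and 219 and 225 below it. Ms4a7, a membrane protein of tissue macrophages, had 23.8, 0.209, 0.263 and 0.447 CPM in EFPrx1MSCLC, against 117.9, 342.5 and 391 CPM in MSC, an adjusted p of 0.0529 in edgeR and of 0.000747 without EFPrx1MSCLC 219.

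Adaptors and Fc receptors were lower for 4 of 5 genes. Tyrobp had 13.7, 0.313, 0.131 and 0.261 CPM in EFPrx1MSCLC, against 121, 696 and 469 CPM in MSC, with a log2 fold change of -7.21 ± 1.77 (edgeR adjusted p = 0.0292) that lost its call in 4 of the 7 omissions (adjusted p up to 0.0779). Fcer1g had 8.29, 0.261, 0.197 and 0.298 CPM in EFPrx1MSCLC, against 150.3, 636 and 418 CPM in MSC (log2 fold change -7.78 ± 1.56, edgeR adjusted p = 0.0147). Both adaptors had fewer than 0.4 CPM in EFPrx1MSCLC 221, 225 and 229. Of the receptors for the Fc part of IgG, Fcgr1 and Fcgr3 were lower, by log2 fold changes of -8.44 and -6.64, and the call of Fcgr3 was lost in 5 of the 7 omissions (adjusted p up to 0.0945). The inhibitory Fcgr2b had 26.5, 0.209, 0.263 and 0.257 CPM in EFPrx1MSCLC, against 384, 556 and 239.8 CPM in MSC, and was not called (edgeR adjusted p = 0.0526; 0.000307 without EFPrx1MSCLC 219).

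All 6 paired immunoglobulin-like receptors were lower. Sirpb1a and Lilra6 had no count in any EFPrx1MSCLC library, so that with a floor of 3 counts per library Sirpb1a was at least 71.1-fold lower than in MSC. For Lilra6 the same floor gives at least 62.1-fold lower. Sirpb1b had 2 counts in the 4 EFPrx1MSCLC libraries and 367 in MSC, and Sirpb1c a log2 fold change of -9.40. RSEM shares reads between similar copies, and none of the nonzero values of Sirpb1a, Sirpb1b and Lilra6 was whole, so the split within these receptor clusters is uncertain. Lilrb4a, an inhibitory receptor of myeloid cells, had 39.3, 8.86, 0.739 and 13.8 CPM in EFPrx1MSCLC, against 783, 752 and 517 CPM in MSC (log2 fold change -5.74 ± 1.09, edgeR adjusted p = 0.0117). Trem2, a lipid-sensing receptor that signals through Tyrobp, had 5.01, 2.77, 0.263 and 1.19 CPM in EFPrx1MSCLC, against 59.2, 235 and 239 CPM in MSC (log2 fold change -6.55 ± 0.95, edgeR adjusted p = 0.00512). Lilrb4a overlaps an annotated gene on the same strand over 1846 bases, and 77.8% of its nonzero values were not whole.

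All 8 pattern recognition and scavenger receptors were lower. Cd14, the co-receptor for lipopolysaccharide that stromal cells also express, had 6.05, 24.2, 17.2 and 22.9 CPM in EFPrx1MSCLC, against 131.7, 616 and 361 CPM in MSC (log2 fold change -4.64 ± 0.68, edgeR adjusted p = 0.00513). As for Cd53, EFPrx1MSCLC 219 was the lowest of its group for Cd14. Mrc1, the mannose receptor, had 12.2, 0.418, 0.263 and 0.485 CPM in EFPrx1MSCLC, against 255, 145.6 and 118.3 CPM in MSC, with a log2 fold change of -6.01 ± 1.41 (edgeR adjusted p = 0.0251) that lost its call in 4 of the 7 omissions (adjusted p up to 0.0627). The C-type lectins Clec4d, Clec4e and Clec7a, which sense microbial glycolipids and fungal glucan, were lower by log2 fold changes of -7.55, -7.70 and -7.15, and the scavenger receptor Msr1 by -6.98. The formyl peptide receptors Fpr1 and Fpr2 had 9 and 5 counts in the 4 EFPrx1MSCLC libraries together, against 3074 and 797 in the 3 MSC libraries.

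The complement genes C1qa, C1qb and C1qc, whose products join into the C1q recognition molecule, moved together across libraries. C1qa had 17.7, 0.313, 0.394 and 0.335 CPM in EFPrx1MSCLC, against 113.7, 322 and 364 CPM in MSC (log2 fold change -6.13 ± 1.62, edgeR adjusted p = 0.0372). C1qb was called as well (log2 fold change -6.84 ± 1.69, edgeR adjusted p = 0.0301), and C1qc was not (log2 fold change -5.89 ± 1.75, edgeR adjusted p = 0.0517). The calls of C1qa and C1qb were lost in 5 and 4 of the 7 omissions (adjusted p up to 0.0982 and 0.0827), and without EFPrx1MSCLC 219 the adjusted p of C1qc was 0.000544. The oxidase genes Cybb, Ncf1 and Ncf4, which build the enzyme of the respiratory burst, were all lower, by log2 fold changes of -6.66, -6.98 and -6.61.

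Within EFPrx1MSCLC, library 219 carried most of these genes at a few percent of their MSC level and the other 3 libraries at well under 1%. Over the 44 genes with at least 5 CPM on average in MSC, the median level relative to the MSC mean was 3.26% in 219, 0.121% in 221, 0.116% in 225 and 0.221% in 229. The share in 219 was not the same for all genes. It was highest for Aif1 with 14.6%, Cd68 with 12.55%, Laptm5 with 9.53%, Ms4a7 with 8.38% and Ptprc with 8.18%. It was lowest, beside the 2 genes without a count, for Cd48 with 0.122%, Sirpb1c with 0.252%, Fpr2 with 0.367%, Fpr1 with 0.496% and Fcgr1 with 0.562%. The C1q genes stood in between, at 4.07% to 8.08% in 219.

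**Figure D3:**
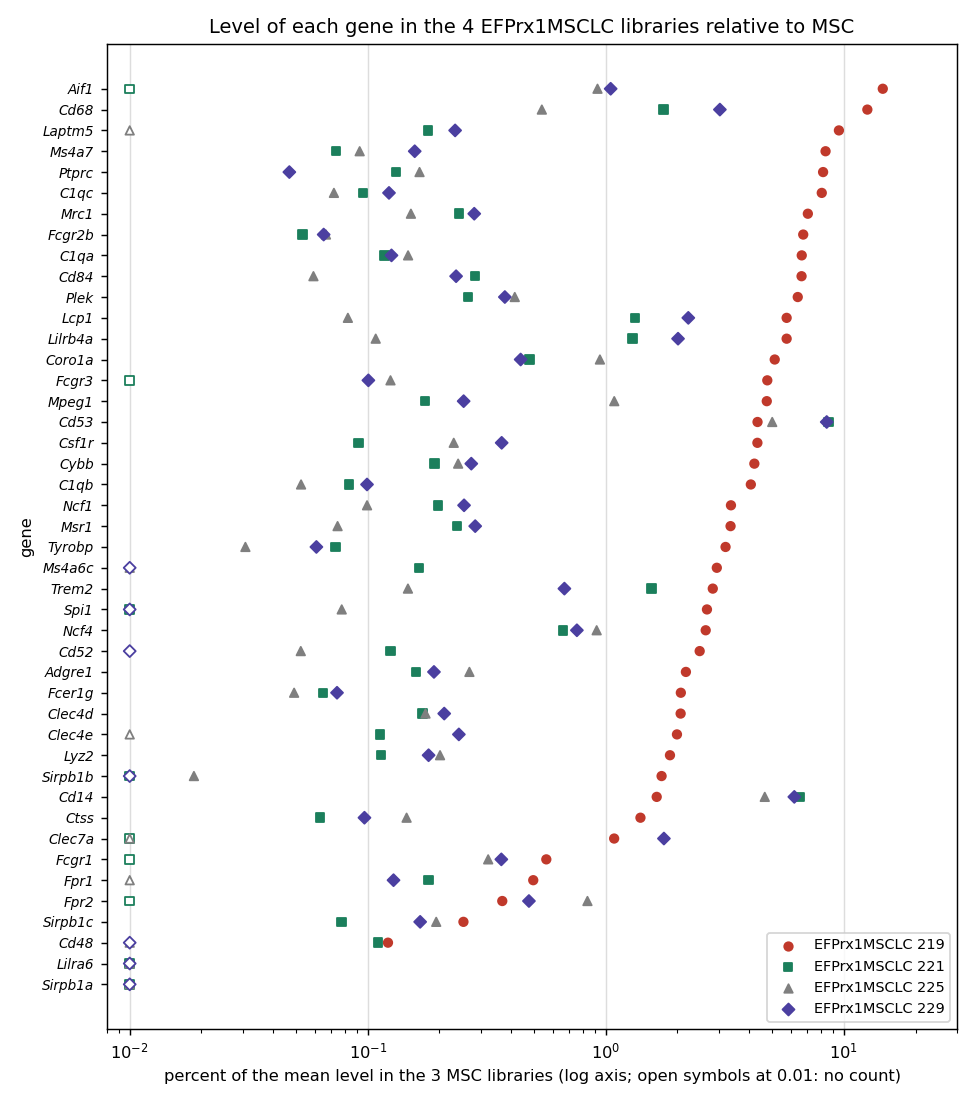
Level of 44 of the genes (those with at least 5 CPM on average in MSC) in each EFPrx1MSCLC library, as percent of the mean of the 3 MSC libraries (log axis), ordered by the share in 219. EFPrx1MSCLC 219 lies to the right of the other libraries for most genes, and to their left for Cd53 and Cd14.

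Itgax, the integrin CD11c of dendritic cells and some macrophages, was above its MSC levels in 219 alone and is named here after its values were seen. It had 17.5, 0, 0.131 and 0 CPM in EFPrx1MSCLC 219, 221, 225 and 229, against 3.26, 1.61 and 2.35 CPM in MSC. Between the groups it was not called (log2 fold change 0.55 ± 2.00, edgeR adjusted p = 0.865). Of other dendritic cell markers, Flt3, Xcr1 and Siglech had no count in 219. Zbtb46 had 4.89, 2.09, 3.35 and 3.43 CPM in EFPrx1MSCLC 219, 221, 225 and 229, against 4.35, 2.28 and 3.62 CPM in MSC, and 219 was the highest of the 15 libraries. EFPrx1MSCLC 221 and 229 also resembled each other against 225. Lcp1, an actin-bundling protein, had 5.27 and 8.83 CPM in 221 and 229 and 0.328 CPM in 225, and Lilrb4a had 8.86 and 13.8 CPM there and 0.739 CPM in 225. Mpeg1 had the opposite order, with 1.41 and 2.05 CPM in 221 and 229 and 8.79 CPM in 225.

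Low counts were spread over nearly all genes in EFPrx1MSCLC and not in experiment 2. In EFPrx1MSCLC 221, 225 and 229 together, 42 of the 45 genes had at least 1 count in 61229944 counts. In the 8 libraries of experiment 2 together, with 103397080 counts, 31 of 45 had one. The 14 without any were Cd48, Cd52, Adgre1, Ms4a7, Tyrobp, Fcgr3, Sirpb1a, Sirpb1b, Sirpb1c, Lilra6, Fpr1, C1qa, C1qb and C1qc. EFPrx1MSCLC and MSC libraries carry the same flowcell and lane label, and whether reads were exchanged between libraries of that lane was not tested.

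The MSC libraries differed from each other along transcript length. Tyrobp, Cd52 and Spi1 were lowest in MSC 202, with 121, 34.8 and 25.0 CPM, against 696, 225.5 and 110.2 CPM in MSC 234 and 469, 115.9 and 118.1 CPM in MSC 237. Ptprc, Mrc1 and Cybb, with long transcripts, were highest in MSC 202. Over 44 genes, the log2 ratio of MSC 202 to the mean of 234 and 237 had a Spearman correlation of 0.729 with the length of the longest coding transcript. Over 10889 genes with at least 5 CPM on average in MSC the correlation was 0.69, and over 30 of the other macrophage and monocyte genes it was 0.206. These are correlations across genes of the same 3 libraries, which are not independent replicates. The median log2 ratio was -1.22 for the 20 genes under 1500 bases, 19 of which were lower in MSC 202, and 0.20 for the 11 genes of at least 3000 bases, 6 of which were higher. Over all genes those medians were -1.19 and 0.57, with 1544 of 1687 short genes lower and 4562 of 5747 long genes higher. For the other macrophage and monocyte genes they were -0.36 over 6 short genes and -0.46 over 16 long ones. In the other groups the same correlation over all genes lay between -0.206 and 0.149. The part of RNA quality in it was not tested.

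**Figure D4:**
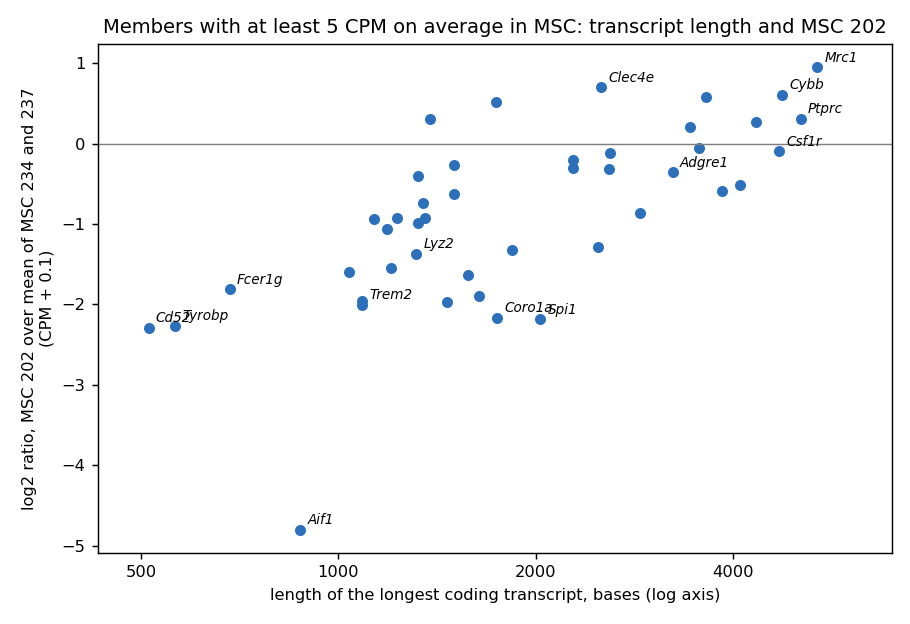
Log2 ratio of MSC 202 to the mean of MSC 234 and 237 (CPM + 0.1) against the length of the longest coding transcript (log axis) for 44 of the genes, with examples named. Short transcripts such as Tyrobp and Cd52 lie about 2.3 below 0 and long ones such as Mrc1 and Cybb above it, while Aif1 lies lowest at -4.80.

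Of the list of 35 other macrophage and monocyte genes, 28 of the 31 tested were lower in EFPrx1MSCLC, where 12.1% of all genes tested were called lower. The median log2 fold change was -6.36, against 0.04 over all genes tested. This list, too, was chosen with earlier results of these data known, so it is no independent support. Cd163, Timd4, Vsig4 and Clec10a were not tested and had at most 0.268 CPM in experiment 1. The list includes the integrins Itgam and Itgb2, the oxidase gene Cyba and the chemokines Ccl3, Ccl4 and Ccl6. Mertk and Maf were among those not called. Their levels, 11.6 to 34.9 and 7.83 to 158 CPM in EFPrx1MSCLC against 14.5 to 17.1 and 40.9 to 76.4 CPM in MSC, overlapped between the groups. Csf1, the growth factor for the Csf1r receptor, had 470, 822, 3317 and 911 CPM in EFPrx1MSCLC, against 1003, 356 and 364 CPM in MSC, so its RNA was plentiful in both. Of the 5 growth factor genes listed, 4 were tested, with 1 called higher (Kitl) and 1 lower (Il34), where 7.7% of all genes tested were called higher. Il34 had 0.313 to 0.979 CPM in EFPrx1MSCLC, against 2.61 to 8.13 CPM in MSC (log2 fold change -3.26 ± 0.64, edgeR adjusted p = 0.0137).

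T, NK, B and mast cell markers were at or near 0. Some neutrophil and platelet markers were present in MSC, while others were at or near 0 or went the other way. Some osteoclast markers, not all, stood out in MSC 237. The T and NK cell list summed to 0.263 to 0.574 CPM in EFPrx1MSCLC and 1.25 to 1.88 CPM in MSC, with Cd3e, Cd3g and Ncr1 listed at 0 in all 15 libraries. The B cell list summed to 0 to 0.209 CPM in EFPrx1MSCLC and 0.134 to 0.443 CPM in MSC, and the mast cell list to 0.0373 to 0.240 CPM and 0.0671 to 0.205 CPM. Of the 11 genes of the neutrophil list 3 were tested, and all 3 were lower in EFPrx1MSCLC, where 12.1% of all genes tested were. S100a8 had 0.0522 to 0.230 CPM in EFPrx1MSCLC and 15.3 to 176 CPM in MSC. Camp, an antimicrobial peptide of granules, had at most 0.0576 CPM in EFPrx1MSCLC, against 1.77, 9.45 and 7.65 CPM in MSC, and Csf3r, the receptor for granulocyte colony-stimulating factor, at most 0.0522 CPM, against 3.22, 5.02 and 4.15 CPM. Mpo and Elane were at 0.134 CPM or below in both and S100a9, the partner of S100a8, was listed at 0 in every library. The neutrophil list genes Ly6g, Ngp, Ltf, Cxcr2 and Retnlg had at most 0.0671 CPM in MSC. The platelet chemokine genes Pf4 and Ppbp had 0 to 0.633 and 0 to 0.209 CPM in EFPrx1MSCLC, against 29.6 to 34.8 and 2.21 to 14.2 CPM in MSC. Of the other megakaryocyte and platelet genes, Itga2b had 4.03 to 5.33 CPM in EFPrx1MSCLC, against 1.85 to 3.96 CPM in MSC, and was not called. Gp1ba was listed at 0 in every library of experiment 1. Whether neutrophils or platelets had a part in the difference was not tested. Acp5, the tartrate-resistant phosphatase of osteoclasts, had 0.115 to 0.365 CPM in EFPrx1MSCLC, against 14.3, 24.3 and 546.5 CPM in MSC 202, 234 and 237. The osteoclast markers Dcstamp, Ocstamp and Oscar had 6.24, 7.45 and 9.59 CPM in MSC 237 and less than 0.6 CPM in every other library. Mmp9 had 55.3, 27.9 and 524 CPM in MSC 202, 234 and 237. Ctsk did not single out MSC 237 in this way, with 712, 327 and 973.5 CPM in MSC, against 5.18 to 48.5 CPM in EFPrx1MSCLC. Nor did Itgb3, with 27.5, 9.11 and 29.0 CPM in MSC and 14.2 to 62.6 CPM in EFPrx1MSCLC. Osteoclasts arise by fusion of macrophage precursors, and several of the 45 genes are also expressed by them; the part of such cells in the difference was not tested.

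In experiment 2 only 7 of the 45 genes passed the filter on low counts, and the defining macrophage markers were at or near 0. Ptprc had 0 and 0 CPM in ha, 0, 0, 0.0704 and 0.176 CPM in hr, and 0.0893 and 0 CPM in EF. Csf1r had 0 and 0.183 CPM in ha, 0, 0.0863, 0.0704 and 0 CPM in hr, and no count in EF. Adgre1, Tyrobp and C1qa had no count in any of the 8 libraries, which allows up to 0.183 to 0.268 CPM per library at 3 counts. Fcer1g had 1 count each in ha 2 and hr 2-1 and none elsewhere, and Ctss had 0.173 CPM in hr 1-2, 0.0794 CPM in EF 2 and no count elsewhere. Spi1 had 0.420 and 0.672 CPM in ha, 0, 0.0863, 0.563 and 0.439 CPM in hr, and 0 and 0.159 CPM in EF. The 7 genes tested were Cd53, Plek, Cd68, Lyz2, Mpeg1, Cd74 and Cd14, at 0.133 to 34.4 CPM.

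Set against EF, ha libraries were higher for 5 of the 7 genes tested, where 23.0% of 13998 genes were called higher and 19.6% lower. Mpeg1 passed the filter on low counts only through the ha libraries, and Plek through ha and hr libraries but not EF. The number called therefore does not describe genes picked without regard to their level in ha. Mpeg1 had 4.55 and 7.33 CPM in ha, against 0.179 and 0.556 CPM in EF (log2 fold change 3.95 ± 0.59, SE, n = 2 each; edgeR adjusted p = 0.00197). Cd74 had 6.71 and 10.1 CPM in ha, against 1.52 and 1.67 CPM in EF (log2 fold change 2.39 ± 0.35, edgeR adjusted p = 0.0018). Lyz2 had 6.58 and 11.4 CPM in ha, against 2.59 and 2.06 CPM in EF (log2 fold change 1.94 ± 0.57, edgeR adjusted p = 0.0279). In all 5 genes called, Plek and Cd14 included, both ha libraries stood above both EF libraries. How many of all genes tested did so was not counted. Plek had 1.12 and 1.16 CPM in ha, against 0.179 and 0.318 CPM in EF (log2 fold change 2.15 ± 0.71, edgeR adjusted p = 0.0416). Cd14 had 3.22 and 14.7 CPM in ha, against 2.23 and 3.02 CPM in EF (log2 fold change 1.74 ± 0.59, edgeR adjusted p = 0.0473). The change of Cd14 rested on ha 2, without which its log2 fold change was 0.36 (adjusted p = 0.422).

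Cd53 and Cd68 were not called between ha and EF. Cd53 had 3.78 and 34.4 CPM in ha, against 10.5 and 8.42 CPM in EF, so the 2 ha libraries lay on either side of EF. Cd68 had 2.10 and 3.36 CPM in ha, against 4.20 and 3.57 CPM in EF (log2 fold change -0.51 ± 0.28, edgeR adjusted p = 0.184). With the EF pair and both hr pairs each summed into 1 library, 1 of the 7 kept its call, Mpeg1, with an adjusted p of 0.0494, where the count over all genes was 736 in place of 5961. Calls of Lyz2 were lost without ha 2 (adjusted p = 0.124), EF 1 (0.114) or EF 2 (0.154), and the call of Plek without ha 1, ha 2, hr 1-1, hr 2-1, EF 1 or EF 2 (adjusted p up to 0.209).

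**Figure D5:**
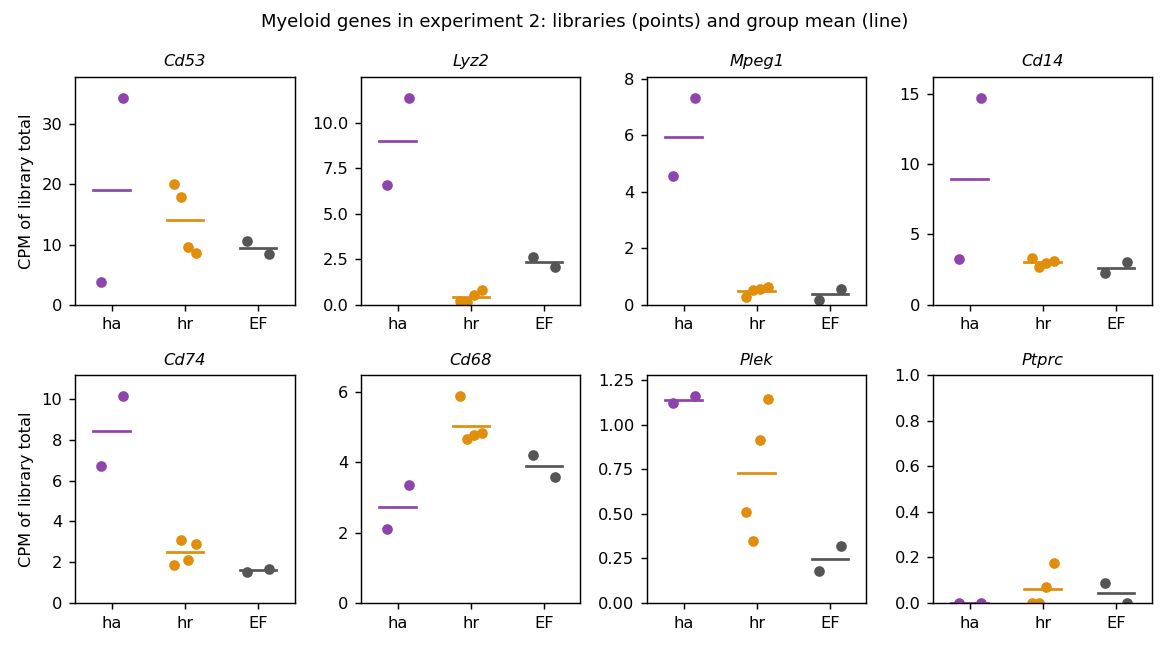
CPM of the 7 genes tested in experiment 2 and of Ptprc, per library (points) with the group mean (line), for ha, hr and EF. Lyz2, Mpeg1 and Cd74 are highest in both ha libraries, Cd53 and Cd14 are high in ha 2 and not in ha 1, and Ptprc stays below 0.2 CPM throughout.

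Set against EF, hr libraries had 1 call among the 7 genes, where 3.07% of genes were called lower and 3.88% higher. Lyz2 had 0.170, 0.133, 0.528 and 0.790 CPM in hr 1-1, 1-2, 2-1 and 2-2, against 2.59 and 2.06 CPM in EF, and all 4 hr libraries were below both EF libraries. Its log2 fold change was -2.41 ± 0.55 (SE, n = 4 and 2; edgeR adjusted p = 0.0445). The call was lost without hr 1-1, hr 1-2, hr 2-1, EF 1 or EF 2 (adjusted p up to 0.287) and with pairs summed (0.916). Mpeg1 had 0.256, 0.518, 0.563 and 0.615 CPM in hr, against 0.179 and 0.556 CPM in EF, and Cd14 had 3.32, 2.68, 2.95 and 3.07 CPM in hr, against 2.23 and 3.02 CPM in EF. The groups overlapped for both genes, with log2 fold changes of 0.38 ± 0.57 and 0.19 ± 0.53. Plek had 0.511, 0.345, 0.915 and 1.14 CPM in hr, against 0.179 and 0.318 CPM in EF, and its log2 fold change of 1.51 ± 0.66 had an edgeR adjusted p of 0.198.

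Set against ha, hr libraries were lower for 4 of the 7 genes and higher for 1, where 21.5% of genes were called lower and 17.9% higher. Mpeg1, among the 4, passed the filter on low counts only through the ha libraries. This comparison shares the ha libraries with the first and the hr libraries with the second. The log2 fold changes were -4.35 ± 0.52 for Lyz2 (edgeR adjusted p = 0.000757), -3.57 ± 0.44 for Mpeg1 (0.000902), -1.75 ± 0.27 for Cd74 (0.00236) and -1.55 ± 0.48 for Cd14 (0.0364). Cd74 had 1.87, 3.11, 2.11 and 2.90 CPM in hr, against 6.71 and 10.1 CPM in ha. For Cd14 the groups overlapped, and without ha 2 its log2 fold change was -0.16 (adjusted p = 0.696). Cd68 was higher, with 5.88, 4.66, 4.78 and 4.83 CPM in hr, against 2.10 and 3.36 CPM in ha (log2 fold change 0.88 ± 0.25, edgeR adjusted p = 0.0262). That call was lost without ha 1 (adjusted p = 0.102), hr 1-1 (0.058) or hr 2-1 (0.0502). With the pairs summed, Lyz2 and Mpeg1 kept their calls (adjusted p = 0.0284 and 0.023).

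The hr pairs differed from each other in Cd53, with 20.0 and 17.9 CPM in hr 1-1 and 1-2 and 9.57 and 8.61 CPM in hr 2-1 and 2-2, and were close within a pair. Of the 38 genes not tested in experiment 2, Aif1 alone reached 1 CPM, with 0.350 and 1.34 CPM in ha, 0.0852, 0.173, 0.352 and 0.439 CPM in hr, and 0.268 and 0.318 CPM in EF. Trem2 had 0.0699 and 0.916 CPM in ha, 0.341, 0.518, 0.0704 and 0.264 CPM in hr, and 0.625 and 0.556 CPM in EF. Lilrb4a had 0.280 and 0.122 CPM in ha and no count in hr or EF, and Mrc1 had 0 and 0.0611 CPM in ha, 0.170 to 0.527 CPM in hr and no count in EF. None of these 4 genes passed the filter, and none was called in any setting of experiment 2 that kept it.

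Of the other macrophage and monocyte genes, 11 of 35 were tested in experiment 2. Of these, 5 were higher in ha than in EF, among them Cd33, Fcgr4, Ccl6 and Ccl9, where 23.0% of all genes tested were called higher. Some of the 5, Cd33 and Fcgr4 among them, would not have passed the filter on low counts without ha libraries. This number, too, does not describe genes picked without regard to their level in ha. Ccl9, a chemokine, had 25.3 and 19.8 CPM in ha, 5.37, 6.04, 4.57 and 7.64 CPM in hr, and 13.4 and 11.7 CPM in EF. It was higher in ha than in EF, and lower in hr than in EF (log2 fold change -1.08 ± 0.23, edgeR adjusted p = 0.037) and than in ha (-1.95 ± 0.22, edgeR adjusted p = 0.00065). Beside these, the integrins Itgam and Itgb2 had 0.122 to 0.210 and 2.69 to 7.34 CPM in ha, 0 to 0.211 and 3.45 to 8.63 CPM in hr, and 0.268 to 0.556 and 3.97 to 4.29 CPM in EF.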

How the data were processed

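Poly(A)-selected RNA of 15 libraries was sequenced, with 14906180 to 26833876 counts per library in experiment 1 and 11195371 to 16378368 in experiment 2. The authors deposited expected counts per gene. Per the submitters' processing notes the tools were STAR and RSEM (no versions) and the build was GRCm38.p6. Annotation, strand setting and read filters: not given in the sources used here. RSEM divides reads between similar copies, so values of paralogs and of overlapping or antisense genes are uncertain. Since 8.27% of the deposited values were fractional, they were rounded, with library totals moving by 0.000579% at most. Gene names and positions came from GENCODE annotation of GRCm38.

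Genes were filtered with filterByExpr (minimum count 10), scaled by TMM and tested with edgeR 4.0.16 (R 4.3.3; glmQLFit robust, glmQLFTest, two-sided); p-values were adjusted by Benjamini-Hochberg over all genes tested and called under 0.05. Each experiment was fitted alone, experiment 2 with its 3 groups together. The test was checked on simulated counts. Alternatives were DESeq2 1.42.0, limma-voom (limma 3.58.1), DESeq2 size factors, no filter and a filter at 5 CPM, totals without leukocyte genes, each library left out, a replicate block by the last title number, only the 2 groups compared, and close libraries summed. Standard errors were taken from edgeR's F statistic, and intervals and floors (3 counts) cover counting error only. Depth sets a floor of 0.112 to 0.201 CPM in experiment 1 and 0.183 to 0.268 CPM in experiment 2.

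The 45 genes and all gene lists were chosen with earlier results of these data known. Named with their values are 14 defining genes, the 4 of highest mean CPM in MSC, and those called or at 1 CPM or more in experiment 2; the rest are given by role. Named outside that rule, after their values were seen, are Laptm5, Ms4a7, Fcgr2b, the genes at the ends of a range, and examples from the other lists. Python 3.11.15 with pandas 2.3.3, numpy 2.4.6, scipy 1.17.1 and matplotlib 3.10.9 was used for summaries and plots. Some genes of the other lists are not reported here.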

Additional observations from a re-analysis of the deposited data

Results flagged for a closer look

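Of 26 groups of 4 libraries examined, 14 held a library far from the rest. The limit used is passed by about 1 in 20 groups of independent, normally distributed values. Unlogged CPM values of related genes are not such values, so that rate is no measure of chance here. In 13 of the 14 groups the library was EFPrx1MSCLC 219, the highest of its group. It had 758 CPM for the sum of the 45 genes, 286 CPM for Lyz2, 22.1 CPM for Ctss, 17.7 CPM for C1qa, 13.7 CPM for Tyrobp, 12.4 CPM for Csf1r, 12.2 CPM for Mrc1, 10.1 CPM for Plek, 8.29 CPM for Fcer1g, 6.51 CPM for Ptprc, 4.26 CPM for Adgre1, 2.25 CPM for Spi1 and 1.04 CPM for Aif1. These values come from 1 library and are not independent of each other. The remaining one was hr 1-1 for Cd68, with 5.88 CPM beside 4.66 to 4.83 CPM in the other hr libraries.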

How the results depend on the processing

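The number of the 45 genes called lower in EFPrx1MSCLC was 39, between 29 and 43 with a library left out, 30 without a filter, 43 with limma-voom and 44 with DESeq2, and no fitted change of a named gene turned sign there. Over all genes DESeq2 called 4598 against 2887, and 1219 to 5087 were called with a library left out. For ha against EF, the 5 calls became 2 with the stricter filter, 3 with the replicate block, 1 with close libraries summed and 2 to 5 with a library left out; over all genes they became 736 summed and 3070 to 5732 with a library left out. For hr against EF, the single call (edgeR; 1 gene at an unadjusted p under 0.05, also 1 called by DESeq2) became 0 with limma-voom, the replicate block and the sums, and 0 to 1 with a library left out. The unadjusted counts were then 1, 2 and 1. Over all genes the 973 calls became 1973 with DESeq2, 322 with the replicate block, 1927 with only the 2 groups fitted, 0 with the sums (797 at an unadjusted p under 0.05) and 0 to 1796 with a library left out. For hr against ha, the 5 calls became 2 with the stricter filter, 2 with the sums and 3 to 4 with a library left out; the 5517 over all genes became 1272 with the sums. The cause was not tested, except that summing leaves fewer libraries and the stricter filter removes genes before the test. In experiment 2 that filter removed Mpeg1, Plek, Cd14 and Cd68. It kept Lyz2 and Cd74, and both stayed called for ha against EF and for hr against ha. Log2 fold changes of uncalled genes turned sign: Cd53 for ha against EF (-1.26 to 1.81 with a library left out) and for hr against ha (0.064 with limma-voom, -1.25 to 1.82 with a library left out), and, for hr against EF, Mpeg1 (-0.19 to 1.41) and Cd14 (-0.012 to 0.434). Libraries with the same last title number did not deviate together (correlations 0.006, 0.013 and 0.001 over 13998 genes), so they share only a number and are not treated as paired. No paired analysis was possible for EFPrx1MSCLC against MSC because their title numbers do not recur. Depth limits the genes listed at 0 to at most 0.268 CPM per library.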

Other observations

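Of 5 further genes of the lists, Mertk overlapped between the groups and the other 4 were lower in EFPrx1MSCLC (edgeR, adjusted p of 0.00272 for Cyba, 0.00372 for Pf4, 0.00166 for H2-Ab1 and 0.0037 for Ccl6). Mertk, a receptor for the engulfment of dying cells, had 11.6, 21.9, 34.9 and 20.0 CPM in EFPrx1MSCLC 219, 221, 225 and 229, against 14.5, 17.1 and 16.5 CPM in MSC, and 17.2 to 31.4 CPM in experiment 2. Cyba, the widely expressed partner of Cybb, had 18.1, 3.86, 8.79 and 9.35 CPM in EFPrx1MSCLC, against 162, 570 and 387 CPM in MSC. Pf4, a chemokine of platelets and some macrophages, had 0.633, 0.0522, 0 and 0.0373 CPM in EFPrx1MSCLC, against 34.8, 34.5 and 29.6 CPM in MSC. H2-Ab1, an MHC class II chain, had 0.0656 to 0.365 CPM in EFPrx1MSCLC, against 8.41, 13.2 and 22.5 CPM in MSC, and Ccl6, a chemokine of myeloid cells, had 1.15, 0.992, 1.38 and 1.86 CPM in EFPrx1MSCLC, against 1124, 891 and 32.3 CPM in MSC, where 237 stood below the other 2 libraries.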
